A study of Mus musculus with 15 samples.

Results

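Skin afferents that carried the CGRP reporter, taken after complete Freund's adjuvant (CFA) was put in the paw, were compared with muscle afferents that lacked the reporter, taken after CFA was put in the muscle. Both groups were chosen from the sample titles, and they make up 6 of the 15 samples of the series, 3 in each group. Every one of the 19938 genes with a usable probe set was tested, and the genes named below are a selection from them, in part by the size of their difference. The cells were large-diameter mouse afferents from lumbar dorsal root ganglia, the clusters of cell bodies beside the spinal cord, and their RNA was measured on Affymetrix arrays as log2 expression.

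All mice were C57BL/6 animals of a line that makes green fluorescent protein (GFP) from the CGRP promoter. CGRP, calcitonin gene-related peptide, is a vasodilator peptide of sensory endings. Ganglia of lumbar levels 2 to 5 were dissociated, and neurons over 26.9 µm in diameter were sorted by GFP and by a fluorescent wheat germ agglutinin tracer. The tracer had been given 5 days before the mice were killed, into the gastrocnemius muscle for muscle neurons or at the saphenous nerve for skin neurons. The CFA paw group held GFP-positive neurons with the skin tracer from mice whose paw was injected with CFA, an oil emulsion with killed mycobacteria that inflames the tissue. The CFA muscle group held GFP-negative neurons with the muscle tracer from mice whose muscle was injected with CFA. The saline paw and saline muscle groups, with 3 samples each, had the same sorts and saline in place of CFA. The 3 arrays of acid-injected muscle entered the shared estimate of the spread and no contrast. They also entered the rescalings described below, the choice of probe set and the limit for dim genes. Target tissue, CGRP reporter, tracer site and injection site all changed together between the paw and muscle groups, and their shares in a difference cannot be told apart. The labels call the samples biological replicates and do not say how many mice went into one, and age and sex are not given in the sources used here.

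Sensory neurons are of many kinds, and each kind carries its own set of ion channels, receptors and peptides. Peptidergic nociceptors release CGRP, substance P and related peptides from their endings and respond to damaging heat, acid or pressure. Non-peptidergic nociceptors carry Mas-related receptors and purine receptors in place of most peptides, while low-threshold afferents of skin and muscle spindles are large, thickly myelinated and rich in neurofilament. CFA causes lasting inflammation, after which many afferents fire more readily.

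On the arrays the CFA paw samples had a wider spread of values than the CFA muscle samples. The SD over genes was 1.74, 1.71 and 1.66 in CFA paw arrays, against 1.37, 1.47 and 1.46 in CFA muscle arrays, and the array medians were 2.67 to 2.74 in CFA paw and 2.79 to 2.83 in CFA muscle. A wider spread places bright genes higher and dim genes lower on an array, so each result below was also taken under 3 alternatives, called rescalings. They are quantile normalization, cyclic loess, and a covariate that holds each SD (array spread below). The covariate enters the fit and leaves the values as they are. Every CFA paw SD lay above every CFA muscle SD, so the covariate can also take up part of a group difference. A call lost with it is therefore hard to read. Saline paw replicate 1 stood apart from its group, at -22.3 on the first principal component (55.8% of the variance), where the CFA paw arrays lay at 44.6, 42.6 and 32.5 and the CFA muscle arrays at -36.0, -16.2 and -16.8. It is no member of the comparison, but it enters the shared estimate of the spread and the rescalings.

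After CFA, 1279 genes (6.41% of those tested) differed between paw and muscle neurons at an adjusted p under 0.05 in limma. Of these, 1146 (5.75%) were higher and 133 (0.667%) were lower in CFA paw neurons, and 812 of the higher and 32 of the lower genes differed by at least 1 on the log2 scale. The smallest difference called was 0.43. Without saline paw replicate 1 the count was 2588, with 2106 higher and 482 lower, and leaving out 1 CFA array at a time gave 527 (without CFA muscle replicate 1) to 832 (without CFA muscle replicate 3). Levels below 2.44, the 95th percentile of olfactory and vomeronasal receptor genes, are called dim.

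How far the balance leaned to the higher side depended on the scaling. Higher genes were 89.6% of the calls on the deposited values, 68.6% after quantile normalization (477 higher and 218 lower), 70.6% after cyclic loess (700 and 292) and 52.3% with array spread as a covariate (232 and 212). With only the 6 arrays compared in the fit, 2529 genes were higher and 680 were lower. The excess of higher calls lay mostly at levels above 4. There were 591 higher and 35 lower calls at mean levels of 4 to 6, 328 and 3 at 6 to 8, and 79 and 0 at 8 or more, while 11 genes were higher and 37 lower under 2.44. The median difference grew with the level. Among the 143 genes with a mean level of 8 or more the median difference was 1.33, among the 6501 genes under 2.44 it was -0.12, and after quantile normalization these medians were 0.06 and 0.00. A total of 188 genes (0.943%) were called higher and 26 (0.13%) lower on the deposited values and under all 3 rescalings, and below these are said to hold under rescaling.

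**Figure D1:**
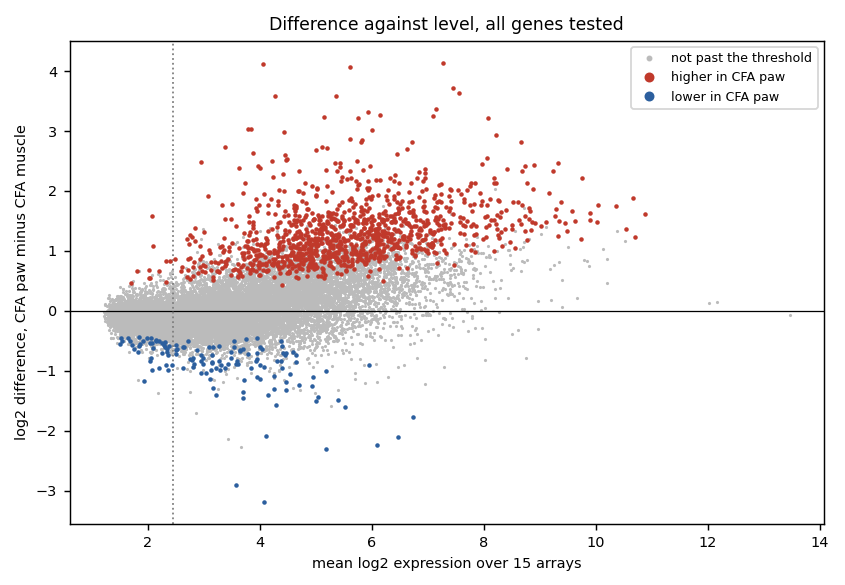
Log2 difference of CFA paw minus CFA muscle (vertical axis) against the mean log2 expression over all 15 arrays (horizontal axis), 1 point for each of 19938 genes, with higher calls in red, lower calls in blue and the dim limit of 2.44 dotted. The cloud tilts upward with the level, and 79 of the 143 genes at a mean of 8 or more were called higher.

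Among the genes with the largest higher differences, Gpx3, which encodes a secreted glutathione peroxidase, measured 7.43, 7.93 and 8.55 in CFA paw neurons, against 4.08, 3.86 and 3.81 in CFA muscle neurons, a difference of 4.06 ± 0.311 (SE) or 16.7-fold (adjusted p = 2.91e-05). Smr2, a gene of the salivary SMR family that is also used as a marker of CGRP-positive myelinated neurons, measured 6.92, 6.44 and 6.31 in CFA paw neurons, against 2.74, 2.14 and 2.46 in CFA muscle neurons, where it was close to the dim limit. It differed by 4.11 ± 0.441 (17.2-fold, adjusted p = 0.000196). For both genes the lowest paw value lay more than 3 log2 units above the highest muscle value.

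Ngfr, the low-affinity neurotrophin receptor, measured 9.64, 9.65 and 9.69 in CFA paw neurons, against 5.61, 6.06 and 6.42 in CFA muscle neurons (difference 3.63 ± 0.317, 12.4-fold, adjusted p = 5.51e-05). S100a11, a calcium-binding S100 protein, stood at 9.90, 9.77 and 9.72 in CFA paw neurons, against 5.93, 5.59 and 6.72 in CFA muscle neurons (difference 3.72 ± 0.357, adjusted p = 0.000124). Its other probe set differed by 3.90. The paw values of both genes lay within a narrow band, with an SD of 0.030 for Ngfr and 0.093 for S100a11, and no muscle value came near it.

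Thy1, a cell-surface glycoprotein of neurons, differed by 3.21 ± 0.417, and Fxyd7, a small regulator of the sodium pump, by 3.25 ± 0.457. Pcp4l1, related to a calmodulin-binding protein of Purkinje cells, differed by 3.36 ± 0.343. Trappc3l, related to a subunit of a vesicle tethering complex, differed by 3.21 ± 0.529, and its muscle values were spread over 3.62, 4.34 and 5.19 against 7.95, 7.84 and 6.98 in paw neurons. The group overlap was nil for each of these 4 genes, and each held under rescaling.

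Sprr1a, a small proline-rich protein known to appear in sensory neurons after axon injury, had the largest difference of all named genes but also a wide spread. It measured 10.79, 10.22 and 8.65 in CFA paw neurons, against 4.12, 6.22 and 6.92 in CFA muscle neurons (difference 4.14 ± 0.847, 17.6-fold, adjusted p = 0.0103). The groups did not overlap. With array spread as a covariate the difference was 2.51 and the adjusted p was 0.172. Of the 15 genes with the largest higher differences, Sprr1a was the only one whose call was lost under a rescaling, and its adjusted p was 0.0554 without CFA paw replicate 1 and 0.0571 without CFA muscle replicate 1.

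**Figure D2:**
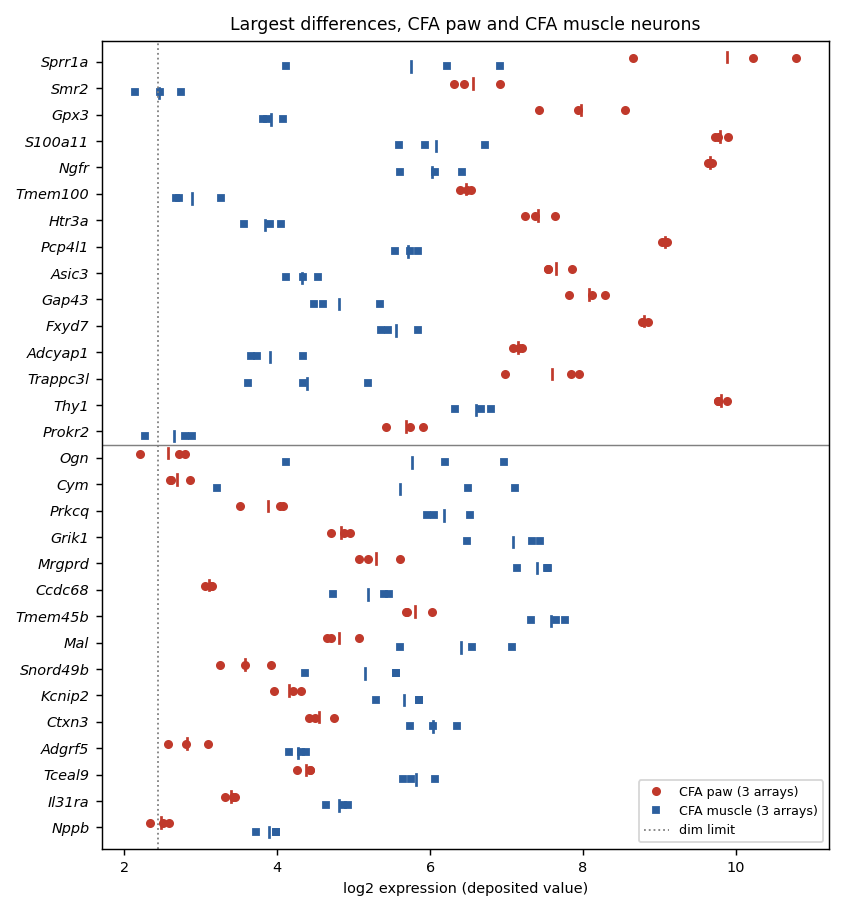
Log2 expression (horizontal axis) of the 15 genes with the largest higher differences (above the line) and the 15 with the largest lower differences (below it), with CFA paw arrays as red circles, CFA muscle arrays as blue squares, group means as ticks and the dim limit of 2.44 dotted. In every gene shown the 3 paw and 3 muscle values do not overlap, and the spread is widest for Sprr1a in both groups and for Ogn and Cym in CFA muscle.

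The lower genes were fewer, and several belong to non-peptidergic neurons. Mrgprd, the Mas-related receptor that defines the main non-peptidergic class of skin, measured 5.61, 5.07 and 5.19 in CFA paw neurons, against 7.13, 7.53 and 7.54 in CFA muscle neurons, and was lower by 4.32-fold (difference -2.11 ± 0.232, adjusted p = 0.000219). Grik1, a kainate receptor subunit, measured 4.70, 4.95 and 4.87 in CFA paw neurons, against 6.48, 7.33 and 7.44 in CFA muscle neurons (difference -2.24 ± 0.321, adjusted p = 0.00122). Both were well above the dim limit in both groups, did not overlap and held under rescaling, and under each rescaling the differences of Mrgprd and Grik1 were larger.

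Prkcq, the theta isoform of protein kinase C, measured 4.08, 4.03 and 3.51 in CFA paw neurons, against 5.96, 6.52 and 6.05 in CFA muscle neurons (difference -2.30 ± 0.427, adjusted p = 0.00601). Ccdc68, a coiled-coil protein of the centrosome, differed by -2.08 ± 0.274, Tmem45b, a transmembrane protein, by -1.77 ± 0.351 and Ctxn3, a cortexin, by -1.49 ± 0.307. Snord49b, a small nucleolar RNA, differed by -1.57 ± 0.271, Tceal9 by -1.44 ± 0.186, and Adgrf5, an adhesion receptor also found in endothelium, by -1.45 ± 0.309. These 7 genes held under rescaling, but without CFA paw replicate 2 the adjusted p was 0.0513 for Ctxn3 and 0.0648 for Adgrf5, and without CFA muscle replicate 1 it was 0.0533 for Adgrf5.

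Ogn and Cym had large but uneven differences. Ogn, a matrix proteoglycan also called osteoglycin, measured 2.21, 2.71 and 2.79 in CFA paw neurons, against 6.97, 6.19 and 4.11 in CFA muscle neurons (difference -3.18 ± 0.890, adjusted p = 0.0470). Cym, the gene of the stomach protease chymosin, measured 2.86, 2.60 and 2.61 in CFA paw neurons, against 3.21, 6.5 and 7.11 in CFA muscle neurons (difference -2.91 ± 0.738, adjusted p = 0.0297). CFA muscle replicate 3 was the lowest of its group for Ogn, and CFA muscle replicate 1 was the lowest for Cym. After quantile normalization neither gene passed (adjusted p = 0.0795 for Ogn and 0.0533 for Cym). The call for Ogn was lost on leaving out any CFA array but CFA muscle replicate 3 (adjusted p of 0.104 to 0.208), and that for Cym on leaving out any but CFA muscle replicate 1 (adjusted p of 0.0845 to 0.119).

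Of the 21 measured genes that mark peptidergic nociceptors, 14 were higher in CFA paw neurons and none lower, with a list median of 2.68 against -0.04 over all genes tested. Below, rose and fell mean higher and lower in CFA paw than in CFA muscle neurons, and not a change brought by CFA. Each list count here and below is to be read against the shares over all genes tested, 5.75% higher and 0.667% lower. The median was 1.95 after quantile normalization and 1.78 with array spread as a covariate, and 12 of the 14 held under rescaling. The summed linear level of the list was 1790 to 2040 in CFA paw arrays and 331 to 338 in CFA muscle arrays. Since the paw sort selected a CGRP reporter and the muscle sort excluded it, these genes also follow the sort. Fewer cells of a type and less RNA per cell cannot be told apart in such bulk samples.

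Several of these genes encode secreted peptides. Adcyap1, the precursor gene of PACAP, measured 7.08, 7.20 and 7.16 in CFA paw neurons, against 3.65, 4.34 and 3.73 in CFA muscle neurons, a 9.46-fold difference (3.24 ± 0.268, adjusted p = 4.44e-05). Tac1, the gene of substance P, measured 8.09, 8.53 and 8.31 in CFA paw neurons, against 5.54, 5.72 and 5.58 in CFA muscle neurons (difference 2.70 ± 0.294, adjusted p = 0.00021). Calcb, which encodes the beta form of CGRP, measured 7.58, 7.47 and 7.45 in CFA paw neurons, against 5.71, 5.86 and 6.04 in CFA muscle neurons (difference 1.63 ± 0.285, adjusted p = 0.00417). The 3 peptide genes showed no overlap between groups, although the call for Calcb was lost with array spread as a covariate (adjusted p = 0.0674). The alpha gene of CGRP, whose promoter drives the reporter, was not analysed here.

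Among the 30 measured neuropeptide and granin genes, 9 rose and 1 fell, with a list median of 0.10. Scg2, a granin of dense-core vesicles, measured 6.63, 7.07 and 7.06 in CFA paw neurons, against 4.32, 4.25 and 4.05 in CFA muscle neurons (difference 2.72 ± 0.331, adjusted p = 0.000422). Vgf, a nerve growth factor-inducible granin, rose by 1.40 ± 0.152 and Chga, chromogranin A, by 1.95 ± 0.363. Nmb, the gene of neuromedin B, rose by 2.10 ± 0.396 and Pcsk1n, an inhibitor of a prohormone convertase, by 1.71 ± 0.313. Of these, Scg2 and Vgf held under rescaling. Gal, the gene of galanin, measured 5.85, 5.31 and 4.24 in CFA paw neurons, against 2.36, 1.98 and 2.84 in CFA muscle neurons, where its mean lay below the dim limit (difference 2.74 ± 0.524, adjusted p = 0.0071).

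Nppb, the gene of a natriuretic peptide that signals itch to the spinal cord, was the peptide gene that fell. It measured 2.59, 2.34 and 2.51 in CFA paw neurons, against 3.98, 3.98 and 3.72 in CFA muscle neurons (difference -1.41 ± 0.143, adjusted p = 0.000196), so its paw values lay at the dim limit, and the call held under rescaling. Sst, the gene of somatostatin, which marks the same itch neurons, measured 4.52, 4.74 and 4.40 in CFA paw neurons, against 5.37, 5.44 and 5.05 in CFA muscle neurons (difference -0.73 ± 0.225, adjusted p = 0.0693). Of 8 measured enzymes that process peptides, the convertases Furin (0.96 ± 0.151) and Pcsk1 (1.42 ± 0.350) rose, and Furin held under rescaling. The list median of 0.55 turned to -0.10 with array spread as a covariate.

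Promoter sequence was available for 8 of the 10 peptide genes that passed, from RefSeq on GRCm38.p6, as the 250 bases before and 50 bases after each start. The letters TGACGT, the core of the cAMP response element, were searched on both strands and were found in 3 of the 8, Scg2, Adcyap1 and Chga, while 7.51% of 32851 RefSeq promoters of that length hold them. The full element TGACGTCA, which contains the core, was found in Scg2 and in 1.79% of all promoters. TATAAA, the TATA box letters, was found in Nppb and Chga and in 13.6% of all promoters, and TGAGTCA, the AP-1 letters, in Pcsk1n and in 5.2%. A match is a run of letters and no measure of binding. The 3 promoters with a match are shown with that of Nppb, the peptide gene with the opposite direction, and capitals mark the core or the full element.
Scg2: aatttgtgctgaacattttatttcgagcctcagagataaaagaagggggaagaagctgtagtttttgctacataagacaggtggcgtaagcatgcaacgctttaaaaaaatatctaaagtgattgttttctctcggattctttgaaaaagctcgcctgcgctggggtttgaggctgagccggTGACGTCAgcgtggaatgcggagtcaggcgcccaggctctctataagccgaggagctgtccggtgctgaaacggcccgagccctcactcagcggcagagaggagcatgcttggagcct
Adcyap1: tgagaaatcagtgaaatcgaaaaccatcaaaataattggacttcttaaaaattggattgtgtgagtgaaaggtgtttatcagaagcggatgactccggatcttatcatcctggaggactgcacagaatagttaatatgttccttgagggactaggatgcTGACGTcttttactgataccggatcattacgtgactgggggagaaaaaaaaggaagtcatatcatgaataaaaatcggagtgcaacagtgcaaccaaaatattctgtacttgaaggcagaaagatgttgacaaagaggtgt
Chga: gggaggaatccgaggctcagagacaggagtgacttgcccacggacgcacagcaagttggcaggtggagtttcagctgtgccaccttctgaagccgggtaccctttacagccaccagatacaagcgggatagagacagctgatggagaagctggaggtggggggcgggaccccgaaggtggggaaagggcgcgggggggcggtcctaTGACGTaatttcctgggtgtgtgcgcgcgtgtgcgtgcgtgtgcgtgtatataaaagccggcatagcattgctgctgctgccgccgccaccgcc
Nppb: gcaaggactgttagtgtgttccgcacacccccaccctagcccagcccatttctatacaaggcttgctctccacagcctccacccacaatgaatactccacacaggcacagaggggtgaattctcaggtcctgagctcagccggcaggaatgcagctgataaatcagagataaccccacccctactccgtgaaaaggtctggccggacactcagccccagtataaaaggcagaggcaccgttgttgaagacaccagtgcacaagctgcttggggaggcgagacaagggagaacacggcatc
Scg2 is read from chr1:79439977-79440276 on the minus strand, Adcyap1 from chr17:93198767-93199066 on the plus strand, Chga from chr12:102554691-102554990 on the plus strand and Nppb from chr4:147985650-147985949 on the plus strand, each written 5′ to 3′ on the gene's strand. The matches begin at -68 from the start in Scg2, -91 in Adcyap1 and -44 in Chga.

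Prokr2, a prokineticin receptor of peptidergic neurons, measured 5.42, 5.74 and 5.91 in CFA paw neurons, against 2.88, 2.27 and 2.79 in CFA muscle neurons (difference 3.04 ± 0.236, adjusted p = 2.91e-05). Of 19 measured receptors of neurotrophins, GDNF family ligands and related factors, 5 rose and none fell, with a list median of 0.45 that turned to -0.14 after quantile normalization, -0.16 after cyclic loess and -0.02 with array spread as a covariate. Besides Ngfr these were Gfra3, the artemin co-receptor (2.87 ± 0.335), Kit, the stem cell factor receptor (2.68 ± 0.329), Il6st, the shared signal chain of interleukin-6 type cytokines (1.28 ± 0.315), and Ntrk3, the receptor of neurotrophin-3 (1.5 ± 0.396). Ngfr, Gfra3 and Kit held under rescaling. Ntrk2, the BDNF receptor of touch neurons, measured 5.06, 4.94 and 4.45 in CFA paw neurons, against 4.77, 4.98 and 5.16 in CFA muscle neurons, and the groups overlapped (difference -0.15 ± 0.285, adjusted p = 0.795).

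Ret, the shared GDNF signalling receptor, averaged 8.75 ± 0.18 in CFA paw neurons and 8.24 ± 0.32 in CFA muscle neurons (SD, n = 3 each, limma adjusted p = 0.351). Gfra2, the neurturin co-receptor, averaged 6.72 ± 0.35 and 7.21 ± 0.35 in the same order (adjusted p = 0.389), and after quantile normalization its difference of -1.24 passed (adjusted p = 0.00424).

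The 27 measured markers of non-peptidergic and itch neurons went both ways, with 3 higher, 6 lower and a median of -0.34 (-0.67, -0.68 and -0.61 under the 3 rescalings). Beside Mrgprd, Grik1 and Nppb, the lower genes were Il31ra, the itch receptor of interleukin-31 (3.32, 3.42 and 3.45 in CFA paw neurons, against 4.64, 4.86 and 4.93 in CFA muscle neurons), Lpar3, a lysophosphatidic acid receptor (-1.10 ± 0.249), and Cysltr2, a leukotriene receptor (-0.98 ± 0.223, with the paw mean below the dim limit). Il31ra differed by -1.41 ± 0.266 (adjusted p = 0.00656) and held under rescaling. The higher genes included both receptors of the other itch class. Mrgprx1, called Mrgprc11 in much of the mouse literature, measured 4.85, 4.74 and 5.37 in CFA paw neurons, against 2.90, 2.43 and 3.24 in CFA muscle neurons (difference 2.13 ± 0.348, adjusted p = 0.00297) and held under rescaling. Mrgpra3, the chloroquine receptor, differed by 1.75 ± 0.338 (adjusted p = 0.00757). The call for Mrgpra3 did not hold under rescaling.

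P2rx3, the ATP-gated channel of non-peptidergic neurons, averaged 7.39 ± 0.10 in CFA paw neurons and 7.31 ± 0.30 in CFA muscle neurons (SD, n = 3 each), and the groups overlapped (difference 0.07 ± 0.309, limma adjusted p = 0.92). After quantile normalization P2rx3 differed by -0.77 with an adjusted p of 0.0112, so its place depends on the scaling. None of the 14 measured purinergic receptors and none of the 12 genes of C-fibre touch neurons and vesicular transporters passed, and their medians were -0.03 and -0.18. Th, tyrosine hydroxylase, a marker of C-fibre touch neurons, measured 5.23, 5.56 and 6.07 in CFA paw neurons, against 6.08, 6.12 and 6.26 in CFA muscle neurons (difference -0.53 ± 0.309, adjusted p = 0.351).

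For channels and partners linked to mechanical force, 7 of 36 measured genes rose and 1 fell, against 5.75% and 0.667% of all genes tested. Their median was 0.10, and -0.04 after quantile normalization. Asic3, an acid-sensing channel of muscle and skin afferents, measured 7.86, 7.54 and 7.54 in CFA paw neurons, against 4.34, 4.12 and 4.53 in CFA muscle neurons, a 9.96-fold difference (3.32 ± 0.347, adjusted p = 0.000196). Asic1 measured 5.08, 4.73 and 4.52 in CFA paw neurons, against 4.26, 4.62 and 3.90 in CFA muscle neurons (difference 0.52 ± 0.199, adjusted p = 0.149). Asic2 measured 6.18, 6.31 and 6.25 in CFA paw neurons, against 5.24, 5.71 and 5.95 in CFA muscle neurons (difference 0.61 ± 0.252, adjusted p = 0.179). Of these 3 subunits of one channel family, Asic3 passed, and its difference was 2.66 after quantile normalization, where those of Asic1 and Asic2 were 0.27 and 0.01.

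Tmem100, a membrane protein that links the heat channel TRPV1 to the irritant channel TRPA1, measured 6.48, 6.39 and 6.54 in CFA paw neurons, against 2.67, 2.71 and 3.27 in CFA muscle neurons (difference 3.58 ± 0.377, 12-fold, adjusted p = 0.000196). Trpv1 itself measured 6.78, 6.83 and 7.02 in CFA paw neurons, against 4.15, 4.67 and 4.61 in CFA muscle neurons (difference 2.40 ± 0.343, 5.27-fold, adjusted p = 0.0012). Trpa1 measured 4.18, 4.33 and 4.02 in CFA paw neurons, against 4.07, 4.04 and 4.12 in CFA muscle neurons (difference 0.10 ± 0.316, adjusted p = 0.888). The paw and muscle values of Trpa1 overlapped, whereas Tmem100 and Trpv1 did not overlap and held under rescaling. Asic3 and Trpv1 were the 2 genes that passed among the 23 measured TRP, acid-sensing and heat-sensing genes, whose median was 0.01.

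Piezo2, the main touch channel of sensory neurons, measured 7.26, 7.36 and 7.24 in CFA paw neurons, against 6.35, 7.29 and 7.33 in CFA muscle neurons (difference 0.30 ± 0.297, adjusted p = 0.605), and its other probe sets differed by 0.44 and 0.53. Piezo1 measured 3.82, 3.64 and 3.95 in CFA paw neurons, against 4.11, 4.51 and 3.75 in CFA muscle neurons (difference -0.32 ± 0.247, adjusted p = 0.5). Both overlapped, and for Piezo2 CFA muscle replicate 1 alone lay below the paw values. Stoml3, a stomatin partner that sensitises Piezo channels, lay near the dim limit in both groups, at 2.28, 2.37 and 2.53 in CFA paw neurons, against 2.82, 2.63 and 2.58 in CFA muscle neurons (adjusted p = 0.379).

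The K2P potassium channels set the resting potential and some open with membrane stretch. Kcnk4 (TRAAK) measured 5.60, 5.28 and 5.40 in CFA paw neurons, against 3.64, 4.33 and 3.97 in CFA muscle neurons (difference 1.44 ± 0.242, adjusted p = 0.00336), and Kcnk10 (1.02 ± 0.232) rose as well. Kcnk2 (TREK-1), the closest relative of Kcnk10, averaged 3.77 ± 0.13 in CFA paw neurons and 3.79 ± 0.093 in CFA muscle neurons (SD, n = 3 each, limma adjusted p = 0.95). Kcnk4 and Kcnk10 were 2 of 14 measured family members, whose median was -0.20. With array spread as a covariate the adjusted p was 0.0557 for Kcnk4 and 0.0897 for Kcnk10, and the list median was 0.11.

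Tmem63b, an osmosensitive channel, rose by 1.39 ± 0.318, Lrrc8a, a subunit of volume-regulated anion channels, by 1.31 ± 0.274 and Tmem150c (tentonin) by 1.11 ± 0.241. Stom, the gene of stomatin, fell. It measured 2.57, 2.46 and 2.42 in CFA paw neurons, against 3.63, 3.25 and 3.24 in CFA muscle neurons (difference -0.89 ± 0.183, adjusted p = 0.0105). None of these 4 calls passed under all 3 rescalings.

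**Figure D3:**
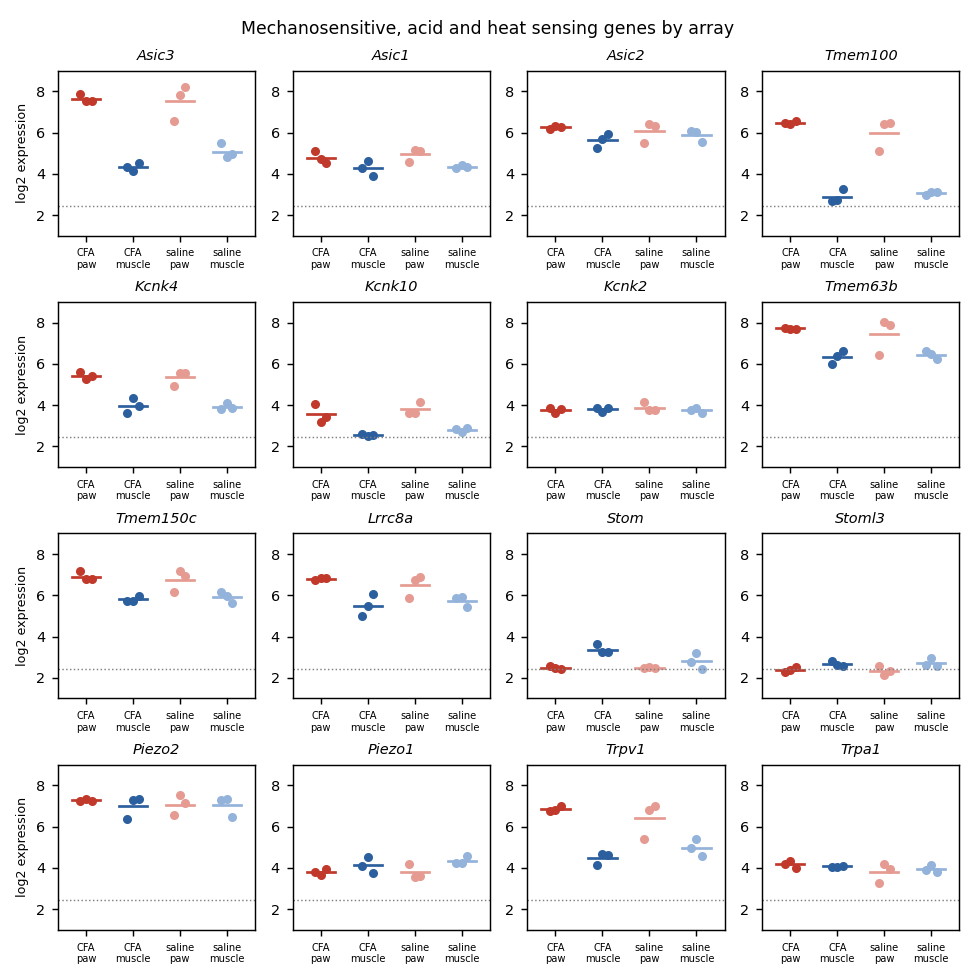
Log2 expression (vertical axis) of 16 mechanosensitive, acid-sensing and heat-sensing genes by array in the CFA paw, CFA muscle, saline paw and saline muscle groups, with bars at the group means and the dim limit of 2.44 dotted. Asic3, Tmem100 and Trpv1 separate the CFA groups by more than 2 log2 units, Piezo2, Piezo1, Kcnk2 and Trpa1 overlap between them, and saline paw replicate 1 lies below the other saline paw arrays in most panels.

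Of 52 measured voltage-gated and calcium-activated potassium channel genes 11 rose and 2 fell, against 5.75% and 0.667% of all genes tested. These channels shape the action potential, and their list median was 0.28 (0.15, 0.17 and 0.08 under the 3 rescalings). Kcnq5, an M-current subunit, measured 5.96, 5.57 and 5.76 in CFA paw neurons, against 3.39, 3.36 and 3.04 in CFA muscle neurons (difference 2.50 ± 0.325, adjusted p = 0.00066). Kcnv1, a silent modifier subunit, differed by 2.64 ± 0.362, Kcnt2, a sodium-activated channel, by 1.59 ± 0.261, and Kcnd1, an A-type channel, by 1.52 ± 0.270. Among the accessory subunits, Kcnip3 measured 9.89, 9.55 and 9.84 in CFA paw neurons, against 7.12, 7.47 and 7.62 in CFA muscle neurons (difference 2.36 ± 0.334), and Kcnip2 went the other way, at 4.31, 4.21 and 3.96 in CFA paw neurons, against 5.29, 5.85 and 5.85 in CFA muscle neurons (difference -1.5 ± 0.301, adjusted p = 0.00925). These 6 genes held under rescaling. Both Kcnip genes encode calcium-binding partners of A-type channels. Kcnn1, a small-conductance calcium-activated channel named after its values were seen, was the other gene that fell (-0.81 ± 0.228, adjusted p = 0.0495).

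Kcnip1 (1.86 ± 0.332), Kcnmb1, a beta subunit of the large-conductance channel (1.92 ± 0.365), Kcnab2 (1.56 ± 0.252) and Kcna2, a channel of the axon initial segment and juxtaparanode (1.10 ± 0.228), rose without holding under rescaling. Of 15 measured voltage-gated sodium channel genes, 4 rose (median 0.77, and 0.22, 0.30 and 0.02 under the 3 rescalings), and none of the 4 held under rescaling. Scn10a, the tetrodotoxin-resistant channel of nociceptors, measured 9.23, 9.28 and 9.27 in CFA paw neurons, against 7.42, 8.01 and 8.0 in CFA muscle neurons (difference 1.45 ± 0.372, adjusted p = 0.0314). Scn8a, the channel of nodes of Ranvier, differed by 1.29 ± 0.352, its beta partner Scn4b by 1.06 ± 0.273 and Fgf12, an intracellular modulator, by 1.59 ± 0.397. Scn11a, the other tetrodotoxin-resistant channel, averaged 7.65 ± 0.024 in CFA paw neurons and 7.99 ± 0.46 in CFA muscle neurons (SD, n = 3 each, limma adjusted p = 0.613), and after quantile normalization Scn11a differed by -1.36 with an adjusted p of 0.00111.

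Of 21 measured calcium channel and HCN genes 6 rose, against 5.75% of all genes tested (median 0.32, and 0.13, 0.13 and 0.01 under the 3 rescalings). Cacna2d2, an alpha2delta subunit, measured 5.31, 5.51 and 6.02 in CFA paw neurons, against 4.20, 3.88 and 3.77 in CFA muscle neurons (difference 1.67 ± 0.247, adjusted p = 0.00152), and it alone held under rescaling. Cacna1a (1.64 ± 0.281) and Cacna1b (1.13 ± 0.260), which carry transmitter release at central terminals, rose too, as did Cacna1c (1.39 ± 0.249), Cacna1e (1.08 ± 0.181) and Cacnb1 (0.86 ± 0.185).

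Several ligand-gated and G protein-coupled receptors differed widely. Htr3a, the ion channel of the serotonin receptors, measured 7.63, 7.37 and 7.24 in CFA paw neurons, against 3.56, 4.05 and 3.90 in CFA muscle neurons (difference 3.58 ± 0.313, 11.9-fold, adjusted p = 5.51e-05). Htr1b, an inhibitory serotonin receptor and a target of triptans, measured 6.30, 5.87 and 5.90 in CFA paw neurons, against 3.41, 3.66 and 3.46 in CFA muscle neurons (difference 2.51 ± 0.353, adjusted p = 0.00109). Neither gene overlapped between groups, both held under rescaling, and they were 2 of 14 measured serotonin receptors, with a median of -0.05.

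Of 14 measured nicotinic receptor genes 3 rose, Chrna7 (2.35 ± 0.248), Chrnb4 (2.60 ± 0.289) and Chrna3 (2.38 ± 0.362), and all 3 held under rescaling. Chrna7, which forms channels of its own kind, measured 6.87, 6.34 and 6.19 in CFA paw neurons, against 3.94, 4.30 and 4.11 in CFA muscle neurons. Chrna3 and Chrnb4 encode partner subunits of one receptor and lie in one gene cluster. The list median was 0.03.

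Inhibitory receptors that rose were Npy1r, a neuropeptide Y receptor (2.48 ± 0.263), Galr1, a galanin receptor (1.92 ± 0.284), Chrm2, a muscarinic receptor (1.54 ± 0.288), and Oprm1, the mu opioid receptor (0.86 ± 0.166). They were 4 of 19 measured genes of the list (median 0.13). Npy1r measured 4.15, 4.85 and 4.53 in CFA paw neurons, against 2.14, 2.11 and 1.85 in CFA muscle neurons, all of these muscle values below the dim limit. Oprm1 measured 3.89, 4.07 and 4.62 in CFA paw neurons, against 3.49, 3.19 and 3.33 in CFA muscle neurons (adjusted p = 0.00776). Npy1r, Galr1 and Oprm1 held under rescaling.

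Of 43 measured receptors for inflammatory mediators, 6 rose and 1 fell, against 5.75% and 0.667% of all genes tested (median 0.05). Ptgir, the prostacyclin receptor, measured 5.46, 5.80 and 5.43 in CFA paw neurons, against 3.39, 3.38 and 3.22 in CFA muscle neurons (difference 2.23 ± 0.273, adjusted p = 0.000422). Ptger1, a prostaglandin E2 receptor, differed by 1.46 ± 0.194 and S1pr3, a sphingosine phosphate receptor, by 2.16 ± 0.366, and these 3 held under rescaling. Tnfrsf1a, the main tumour necrosis factor receptor (0.64 ± 0.146), and Ifnar1, a type I interferon receptor chain (0.75 ± 0.192), rose with Il6st, and Cysltr2 fell.

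Among receptors of fast central transmitters, Grik1 fell as described above. Grik4, a kainate subunit (0.97 ± 0.216), and Grin3a, an NMDA subunit (1.17 ± 0.300), rose among 22 measured glutamate receptor genes (median -0.05), and Gabbr1, a GABA-B subunit (1.02 ± 0.275), rose among 16 measured GABA and glycine receptor genes (median -0.10). Both counts are to be read against the 5.75% of all genes tested that rose. Grik4, Grin3a and Gabbr1 did not hold under rescaling.

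Of 38 measured transcription factors of sensory neurons 12 rose and none fell, and 2 of the 12 held under rescaling. The median was 0.33, and 0.03 after quantile normalization, 0.06 after cyclic loess and 0.20 with array spread as a covariate. Etv5, an ETS factor downstream of growth factor signals, measured 5.73, 5.83 and 6.11 in CFA paw neurons, against 3.91, 4.12 and 4.24 in CFA muscle neurons (difference 1.80 ± 0.241, adjusted p = 0.000798), and its other probe set differed by 3.20. Nfia, a nuclear factor I gene, differed by 2.21 ± 0.302 and its relative Nfib by 2.14 ± 0.399. Their other probe sets differed by less, 1.04 for Nfia and 0.73 for Nfib, where the CFA muscle mean of 2.32 lay below the dim limit. Klf7 (1.76 ± 0.296), needed for nociceptor development, Prdm8 (1.70 ± 0.301) and Zeb2 (1.51 ± 0.279) rose as well. The 2 that held, on the probe sets used, were Etv5 and Nfia. Runx1, a factor of non-peptidergic neurons, averaged 6.05 ± 0.36 in CFA paw neurons and 6.07 ± 0.51 in CFA muscle neurons (SD, n = 3 each, limma adjusted p = 0.979), and Runx3, a factor of proprioceptors, averaged 3.45 ± 0.22 and 3.69 ± 0.19 in the same order (adjusted p = 0.616). None of the 31 measured Hox genes, which encode position along the body, passed, and their median was -0.01.

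Neurofilament was bright in both groups. Nefh, the heavy neurofilament chain, measured 11.04, 10.80 and 10.66 in CFA paw neurons, against 8.83, 9.53 and 9.25 in CFA muscle neurons (difference 1.63 ± 0.270, adjusted p = 0.00325), and Nefl, the light chain, differed by 1.61 ± 0.349. After cyclic loess the difference was 0.08 for Nefh and -0.16 for Nefl, so the direction for Nefl turned with the scaling. Of 35 measured markers of large myelinated afferents 8 rose, and the median of 0.52 was 0.12 after quantile normalization. Ntrk3, a marker of proprioceptors and touch neurons, measured 6.56, 6.73 and 6.74 in CFA paw neurons, against 4.38, 5.55 and 5.59 in CFA muscle neurons (difference 1.5 ± 0.396, adjusted p = 0.0365), and Tafa1, a secreted chemokine-like protein, differed by 2.74 ± 0.332. Pvalb, parvalbumin, the calcium buffer of muscle spindle afferents, measured 5.30, 4.19 and 3.74 in CFA paw neurons, against 5.28, 5.2 and 4.73 in CFA muscle neurons, and the groups overlapped (difference -0.66 ± 0.437, adjusted p = 0.415). Thy1 and Tafa1 held under rescaling.

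Genes of the axon and its terminals were bright, and their lists moved with the scaling. Of 35 measured neurofilament, tubulin and axonal transport genes 14 rose, with a median of 1.05 that became 0.00 after quantile normalization. Tubb4a, a beta tubulin, measured 10.95, 10.65 and 10.79 in CFA paw neurons, against 8.19, 8.29 and 8.51 in CFA muscle neurons (difference 2.46 ± 0.225, adjusted p = 8.03e-05), and Mapt, the gene of tau, differed by 1.39 ± 0.236. Tubb4a and Mapt held under rescaling, and Map1b (1.88 ± 0.352), Stmn2 (1.75 ± 0.339) and Tubb5 (1.53 ± 0.323) did not. Of 34 measured genes of synaptic vesicle release 14 rose (median 0.75, and 0.20 after quantile normalization). Cplx2, a complexin that clamps fusion (1.86 ± 0.242), Syn1, a synapsin (1.82 ± 0.320), and Rab3a, a vesicle GTPase (1.71 ± 0.314), held under rescaling, while Napb (1.86 ± 0.337) and Syn2 (1.34 ± 0.245) did not.

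Axon guidance and adhesion genes, 58 in all, had 14 higher and 1 lower call, against 5.75% and 0.667% of all genes tested, and a median of 0.11. Plxna4, a semaphorin co-receptor, measured 7.39, 7.59 and 7.48 in CFA paw neurons, against 4.67, 4.5 and 4.83 in CFA muscle neurons (difference 2.82 ± 0.316, adjusted p = 0.000238). Plxna2 (2.20 ± 0.357), Sema6d (1.58 ± 0.285) and Cntn2, a contactin of the juxtaparanode (1.45 ± 0.215), rose and held under rescaling, and Sema6a (1.42 ± 0.231) and Nrp2 (1.63 ± 0.301) rose without holding. Cdh1, E-cadherin, which is known in small non-peptidergic neurons and glia of the ganglion, fell, at 5.34, 5.49 and 5.87 in CFA paw neurons, against 6.23, 6.55 and 6.66 in CFA muscle neurons (difference -0.91 ± 0.254, adjusted p = 0.0464). It was named after its values were seen, and it held under rescaling, with a difference of -1.49 after quantile normalization.

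Of 36 measured genes known from nerve injury 6 rose (median 0.47, and 0.19, 0.24 and 0.28 under the 3 rescalings), among them Gap43, a growth cone protein, which measured 8.29, 8.12 and 7.82 in CFA paw neurons, against 4.48, 4.60 and 5.34 in CFA muscle neurons (difference 3.27 ± 0.377, adjusted p = 0.000313). Serpina3n, a serine protease inhibitor (2.08 ± 0.297), and Hspb1, a small heat shock protein (1.84 ± 0.271), also rose and held under rescaling. Atf3, the classic injury factor of sensory neurons, measured 7.59, 6.88 and 6.37 in CFA paw neurons, against 6.12, 5.94 and 6.48 in CFA muscle neurons, and the groups overlapped (difference 0.77 ± 0.389, adjusted p = 0.279).

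Among all genes 5.75% were called higher, and the stress and immune lists are to be read against that share. Egr1 (1.20 ± 0.282) and Jund (0.58 ± 0.155) rose among 27 measured immediate early genes, whose median of 0.24 turned to -0.17 after quantile normalization and to -0.16 after cyclic loess, and for Jund the difference was -0.02 after quantile normalization. Bag3, a partner of heat shock proteins (1.65 ± 0.298), rose with Hspb1 among 17 measured heat shock genes, whose median of 0.31 turned to -0.37, -0.46 and -0.70 under the 3 rescalings. Oasl2 (1.51 ± 0.247) and Ddx58, the RNA sensor RIG-I (0.91 ± 0.231), were 2 of 36 measured interferon response genes to rise (median -0.01). Among 35 measured cytokine and chemokine genes Tgfb2 (0.70 ± 0.164) rose and Osm (-0.54 ± 0.146) fell, with both Osm means below the dim limit, and Clu, clusterin (1.51 ± 0.257), rose among 18 measured acute phase and complement genes. Of these genes Oasl2 and Hspb1 held under rescaling.

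Housekeeping lists showed how far the scaling reaches. Of 49 measured ribosomal protein genes Rpl29 rose (1.27 ± 0.256), and the median of -0.01 was -0.57 after quantile normalization. Of 73 measured genes of the mitochondrial respiratory chain 4 rose, Atp5d, Atp5g1, Sdhc and Ndufa11, by 0.95 to 1.58, and the median of 0.31 turned to -0.26 after quantile normalization. Dhcr7, an enzyme of cholesterol synthesis (1.09 ± 0.275), rose among 15 measured genes of sterol and fatty acid synthesis, whose median of 0.41 turned to -0.25 after it. None of these 6 calls held under rescaling.

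**Figure D4:**
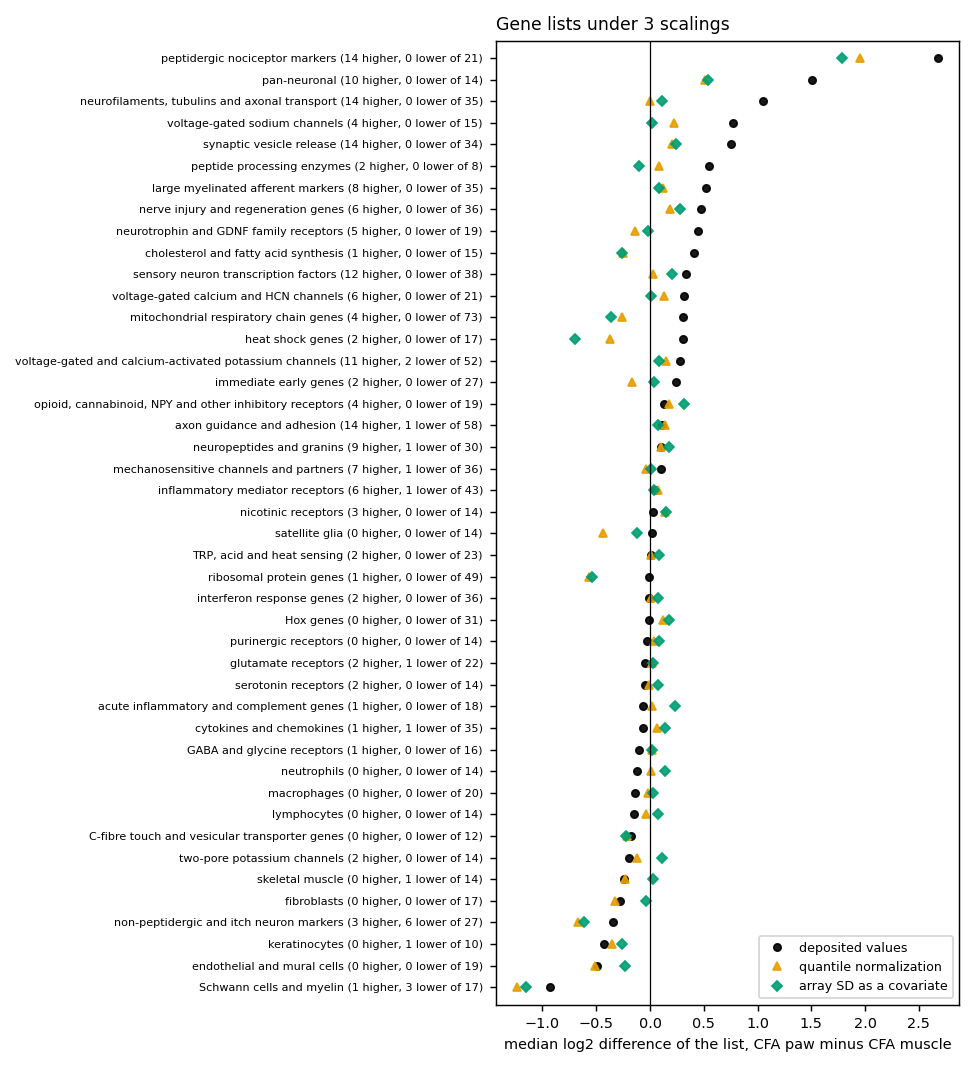
Median log2 difference of CFA paw minus CFA muscle (horizontal axis) for each gene list on the deposited values (circles), after quantile normalization (triangles) and with array spread as a covariate (diamonds), with the counts of higher and lower calls and of measured members in the labels. Peptidergic markers stay at the top under each scaling (2.68, 1.95 and 1.78), Schwann cell and myelin genes stay at the bottom (-0.93, -1.24 and -1.15), the respiratory chain list turns negative under both rescalings, and the cytoskeletal list moves to 0.00 and 0.11.

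Markers of the other cells that a sort could hold were checked beside these lists. Of 14 pan-neuronal genes 10 rose, with a median of 1.51 that was 0.51 after quantile normalization, and their summed linear level was 9330 to 10300 in CFA paw arrays and 2630 to 3860 in CFA muscle arrays. Rbfox3, the gene of the neuronal antigen NeuN, measured 8.02, 8.02 and 8.09 in CFA paw neurons, against 5.00, 5.57 and 5.74 in CFA muscle neurons (difference 2.61 ± 0.383, adjusted p = 0.00145) and held under rescaling. Of the 10 calls 2 held under rescaling, and the list median was 0.32 after cyclic loess. What part neuronal content has in the gene groups above was not tested.

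Of 17 measured Schwann cell and myelin genes 3 fell, Mal (-1.60 ± 0.447), Gldn (-1.28 ± 0.311) and Mag (-0.88 ± 0.227), and Ngfr, which neurons also express, rose. None of the 3 lower calls held under rescaling. The call for Mal was lost on leaving out any CFA array but CFA muscle replicate 3 (adjusted p of 0.0869 to 0.211). All paw values lay below all muscle values for 9 of the 17 and above for 3 (17.1% and 18.9% of all genes tested). The median was -0.93, and the summed level including Ngfr was 2210 to 2500 in CFA paw arrays and 1130 to 1980 in CFA muscle arrays. Mbp, myelin basic protein, measured 4.56, 4.83 and 4.76 in CFA paw neurons, against 7.05, 5.92 and 5.13 in CFA muscle neurons (difference -1.32 ± 0.529, adjusted p = 0.167). CFA muscle replicate 1 was the highest of its group for Mbp, Mal, Gldn and Ogn. None of the 14 satellite glia genes passed, and their median of 0.02 turned to -0.44 after quantile normalization. Of the 14, 8 had a positive difference. All paw values lay above all muscle values for 4 of them and below for 2 (18.9% and 17.1% of all genes tested). Fabp7 and Apoe, both abundant in satellite glia, averaged 9.82 ± 0.11 and 10.31 ± 0.07 in CFA paw neurons, and 9.31 ± 0.36 and 9.57 ± 0.22 in CFA muscle neurons (SD, n = 3 each).

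Vessel and immune markers were low. None of 19 endothelial and mural genes passed, but 12 had all paw values below all muscle values (17.1% of all genes tested did so), with a median of -0.49 (-0.23 with array spread as a covariate) and a summed level of 147 to 155 in CFA paw arrays and 189 to 262 in CFA muscle arrays. None of 17 fibroblast genes passed, but 8 had all paw values below all muscle values (median -0.28, and -0.04 with array spread as a covariate, summed level 236 to 249 in CFA paw and 281 to 311 in CFA muscle). None of 20 macrophage, 14 neutrophil, 14 lymphocyte and 3 erythroid genes passed, and 11, 10, 8 and 2 of them had both means below the dim limit. All paw values lay below all muscle values for 1, 2, 6 and 2 of them in the same order. Myh2 (-0.72 ± 0.170), of 14 skeletal muscle genes, and Krt14 (-0.84 ± 0.229), of 10 keratinocyte genes, fell with paw values near the dim limit. The part of these cells in the results was not tested.

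The same paw and muscle sorts after saline gave a contrast whose group means share no array with those of the CFA one. The tests of both contrasts used the same shared estimate of the spread for each gene, to which the CFA and saline arrays all contributed. The calls of the contrasts are therefore not independent, and the shared calls below are given as a description. On the deposited values 407 genes (2.04%) differed between saline paw and saline muscle neurons, 373 higher (1.87%) and 34 lower (0.171%), so that 91.6% of the calls were higher, and this share was 61.7% after quantile normalization, 62.2% after cyclic loess and 44.3% with array spread as a covariate. Leaving out saline paw replicate 1, 2 or 3 changed the count of 407 to 3824, 58 or 51, and leaving out saline muscle replicate 1, 2 or 3 changed it to 217, 110 or 111. It was 0 with only the saline arrays compared in the fit (2261 genes at an unadjusted p under 0.05 in limma). With all arrays, of the 1279 genes called after CFA, 338 (26.4%) were called in the same direction after saline, which is 83.0% of the saline calls, and without saline paw replicate 1 the shared calls were 1060 (82.9% of the CFA calls and 27.7% of the saline calls). The sign was the same for 1272 of the 1279 (99.5%), and the share over all genes tested is not given here. Saline paw arrays had an SD over genes of 1.42, 1.80 and 1.76, against 1.51, 1.45 and 1.34 in saline muscle arrays. What part a wider paw spread has in the shared sign was not tested.

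The genes higher in CFA paw had a median difference of 1.23 after CFA and 0.91 after saline, or 1.26 after saline without saline paw replicate 1. For the lower genes the medians were -0.81 after CFA, -0.32 after saline and -0.40 after saline without that array. The size of the CFA differences was part of what selected these genes, so the lower saline values are given as a description.

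The test of the difference between the 2 contrasts, that is the paw minus muscle difference after CFA minus that after saline, called no gene in limma (325 genes had an unadjusted p under 0.05). That number was 702 without saline paw replicate 1 and 1852 with array weights, again with no gene called. Of the genes tested, 325 and 702 are less than a share of 0.05, and 1852 is more. A share of 0.05 is what this cut-off passes when no gene differs. The median SE of this test was 0.263, against 0.186 for the CFA contrast. A lack of calls does not show that the 2 differences are equal. Igfbp5 and Adcyap1 had the smallest unadjusted p of all genes tested, and Igfbp5 was named after its values were seen. Igfbp5, a binding protein of insulin-like growth factors, measured 3.84, 3.82 and 4.28 in CFA paw, 4.84, 5.48 and 5.57 in CFA muscle, 4.32, 4.10 and 4.25 in saline paw and 4.43, 3.64 and 4.40 in saline muscle neurons, so that the paw minus muscle difference was -1.32 after CFA and 0.07 after saline (difference of the differences -1.39 ± 0.326, unadjusted p = 0.000726 and adjusted p = 1 in limma). For Igfbp5 the 3 CFA muscle values lay above those of the other 3 groups.

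Adcyap1 measured 5.65, 6.22 and 6.85 in saline paw neurons, against 5.03, 4.23 and 4.55 in saline muscle neurons, a difference of 1.64 ± 0.268, while after CFA it was 3.24 (difference of the differences 1.60 ± 0.380, unadjusted p = 0.000808 and adjusted p = 1 in limma). Without saline paw replicate 1 this value was 1.31. Asic3 differed by 3.32 after CFA and 2.46 after saline, Tac1 by 2.70 and 1.95, Trpv1 by 2.40 and 1.42, and Mrgprd by -2.11 and -1.90, and none of these pairs passed the test of their difference (adjusted p = 1 for each). Sprr1a, with 4.14 after CFA and 1.91 after saline, and Cym, with -2.91 and -0.67, had the widest gaps among the 30 genes with the largest differences, with SEs of the gap of 1.20 and 1.04.

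**Figure D5:**
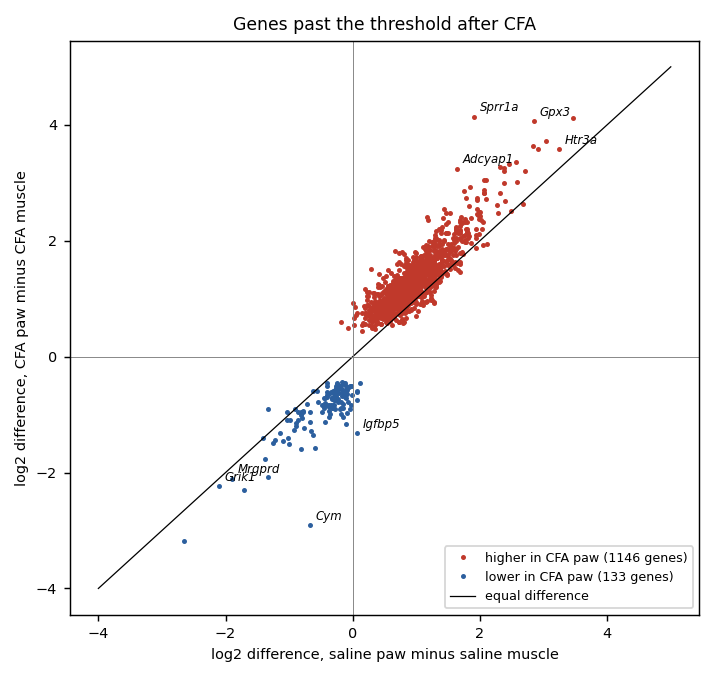
Paw minus muscle log2 difference after CFA (vertical axis) against that after saline (horizontal axis) for the 1279 genes called after CFA, higher genes in red and lower genes in blue, with a line at equal differences. All but 7 genes share the sign of both differences, and Igfbp5, Cym, Adcyap1 and Sprr1a lie far from the line.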

How the data were processed

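Expression was measured on 15 Affymetrix mouse arrays, 3 in each of 5 groups, with 50 ng of RNA per the labels' protocols. The values are log2 expression as the authors deposited them, made with RMA and Partek per the submitters' processing notes. Their versions are not given in the sources used here, and the log base was taken from the range of the values. Of 35556 probe sets, 21789 had 1 gene symbol, 1621 had several and 12146 were not in the platform table and stayed unnamed. A gene with several probe sets (999 genes) was read from the one with the highest mean over all arrays, which left 19938 genes. Of the gene IDs, 21698 matched RefSeq and 0 symbols were updated.

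Group means were fitted over all 15 arrays in limma 3.58.1 (R 4.3.3) with empirical Bayes moderation (10 residual and 4.32 prior degrees of freedom), tests were two-sided, and p-values were adjusted by Benjamini-Hochberg over all genes at 0.05. P-values measure the spread between these samples, and the number of arrays limits the precision: the median SE was 0.186. The report names, per direction, the 15 genes with the largest differences past the threshold, without overlap and above the dim limit, without predicted, unnamed and receptor cluster loci. It also names up to 6 called members of each of 46 gene lists with the smallest p (10 for channel, receptor and peptide lists), members that define a list, and a fixed set of channels and markers. The gene lists and this choice of genes were made with earlier results of these data known. Alternatives covered the scaling, dim genes, probe sets, the arrays in the fit, array weights, the prior, the threshold, a replicate block and leaving out each array. The fit treated samples as unpaired. Deviations of same-numbered paw and muscle samples from their group means had r of -0.117, 0.058 and -0.085 after CFA. After saline these were -0.5, 0.154 and -0.453. With 3 arrays in a group, whose deviations sum to nil, such values cannot settle whether same-numbered samples were paired.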

Additional observations from a re-analysis of the deposited data

How the results depend on the processing

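The CFA count of 1279 genes was 695 after quantile normalization, 444 with array spread as a covariate, 3209 with only the 6 arrays compared, 2588 without saline paw replicate 1 and 4054 with array weights. It was 425 at an adjusted p under 0.01, 2067 under 0.10 and 844 with a log2 difference of at least 1, and leaving out 1 CFA array gave 527 to 832. Called again in the same direction were 534 (41.8%) after quantile normalization, 759 (59.3%) after cyclic loess and 253 (19.8%) with array spread as a covariate. The saline count of 407 was 199 after median centring, 0 with only the arrays compared (2261 genes at an unadjusted p under 0.05 in limma), 3824 without saline paw replicate 1, 7379 with array weights, 86 at an adjusted p under 0.01 and 896 under 0.10, and leaving out 1 saline array gave 51 to 3824. The test of the difference between the contrasts called 0 genes under each alternative in limma, except 1 gene without CFA muscle replicate 1 (0 to 1 over the arrays left out), and had 325 genes at an unadjusted p under 0.05 (702 without saline paw replicate 1 and 1852 with array weights). With the replicate block the counts were 1144 after CFA, 316 after saline and 0 for their difference. The cause of these changes was not tested. Of the 15 largest higher genes, 252 of 255 values under alternatives kept the call, and of the 15 largest lower genes 230 of 255, with no direction reversed. Both sets were chosen from these same arrays for their calls, size and lack of overlap, and several alternatives leave a gene's difference unchanged. The tally is therefore a description and no independent support. Of 46 list medians, 15 changed sign after quantile normalization, 12 after cyclic loess and 21 with array spread as a covariate. Genes below the dim limit of 2.44 have no reliable fold.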

Other observations

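Of 302 microRNA genes among those tested, 4 were called higher in CFA paw neurons (Mir455, Mir665, Mir568 and Mir383) and 0 lower. Over all genes tested 5.75% were higher and 0.667% lower, and neither microRNA share was above these. The microRNA probe sets read the host or precursor transcript as well as any mature microRNA, and no mature level was measured.

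Xist, the RNA that coats the inactive X chromosome, varied within the CFA muscle group. It measured 1.49, 1.53 and 1.54 in CFA paw neurons, against 1.40, 3.29 and 3.35 in CFA muscle neurons, and lay between 1.43 and 1.93 on the arrays of the other groups. The paw minus muscle difference was -1.16 ± 0.360 (adjusted p = 0.0719 in limma). Xist was named after its values were seen, and the sex of the mice is not given in the sources used here.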
